A study of Citrus sinensis with 12 samples.

Results

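The most abundant annotated transcripts in roots of sweet orange (Citrus sinensis) are described here. The genes were chosen by their level: each has an annotated identifier, starting with Cs or orange1.1t, and an FPKM that averaged at least 500 over all 12 libraries. FPKM counts the sequenced fragments of a gene relative to its length and to the depth of its library. The rule was met by 102 genes of 18730 annotated identifiers and 20122 listed genes in all. Seedlings had grown for 17 weeks at pH 3 or pH 4.8, each with 0.5 or 300 µM CuCl2, and 3 libraries per combination were each made from the pooled roots of 4 seedlings. The control was pH 4.8 with 0.5 µM CuCl2, the acid group pH 3 with 0.5 µM, the copper group pH 4.8 with 300 µM, and the combined group pH 3 with 300 µM. The question of the study is whether raising the pH relieves copper toxicity. Titles of the control samples give 5 µM copper where their treatment label gives 0.5 µM, and the label was used.

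A small part of a plant's genes supplies a large part of its messenger RNA. In roots, transcripts for ribosomal proteins, translation factors, metallothioneins, aquaporins, cell wall proteins and stress-related proteins are often found at this end of the range. Copper is a cofactor of many plant enzymes and is toxic in excess, with roots as the first organ exposed, while strong acidity by itself harms root growth. The deposited tables give no gene names or functions, and 0 of the identifiers occur in the RefSeq table. No role is therefore assigned to any gene, and each is described by where it lies. Lists by function (such as metallothioneins, aquaporins and heat shock proteins) stayed empty, and a root cell type could not be checked by markers. In whole roots, fewer cells of a type and less RNA per cell cannot be told apart.

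Depth did not limit the values of these genes. The spacing of the lowest values put the depth of a library at 17710000 to 22780000 fragments, so that 500 FPKM on 1 kb of transcript corresponded to 8855 to 11390 fragments and a counting error of 0.937% to 1.06%. The spread between pools was larger. The median SD of the 102 genes on the log2(FPKM + 1) scale was 0.0815 in the acid group, 0.0808 in the control, 0.110 in the copper group and 0.177 in the combined group. A single library stood apart there. Replicate 2 of the combined group held the highest value of its group for 71 of the 102 genes, at a median of 1.16 times the mean of the other replicates, against 10 to 54 genes in each of the 11 other libraries. Differences of named genes that rest on the combined group, and rises and falls called per test, are followed by their values without it or by a range over the alternatives. Other numbers are given with all libraries only. Among them are the 2-fold changes, the genes called at a single pH and the split of interactions by size. What sets this library apart was not tested.

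Together the 102 genes held a nearly constant part of the transcript pool. Their share of the summed FPKM was 16.1% ± 0.247 in the control, 16.4% ± 0.140 in the acid group, 16.1% ± 0.533 in the copper group and 16.7% ± 1.00 in the combined group (SD, n = 3 in each). Over single libraries it ran from 15.6% to 17.8%, the highest in replicate 2 of the combined group, without which that group averaged 16.1%. Mean levels went from 503 to 5481 FPKM with a median of 678, and 18 genes averaged at least 1000 FPKM, 5 of them at least 2000. These 5 highest genes held 2.93% to 4.32% of the summed FPKM.

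The highest transcript of all was Cs6g11770, a short gene on chromosome 6 from 12935838 to 12936074, minus strand. Its FPKM was 5642, 5886 and 5667 in the control, 5784, 5948 and 5344 in the acid group, 4324, 4630.4 and 4076 in the copper group and 5320.2, 7627 and 5524 in the combined group. It was the top annotated gene in 10 of 12 libraries, and all 3 copper libraries lay below the 9 others. Copper lowered it at pH 4.8 by a difference of -0.40 (± 0.15 SE, adjusted p = 0.039 by limma). At pH 3 the copper difference was 0.10 (± 0.15 SE, adjusted p = 0.66 by limma), and the test between both copper differences gave an adjusted p of 0.12 in limma. Leaving out replicate 2 of the combined group turned the pH 3 difference to -0.07 (adjusted p = 0.69, and 0.18 for the test between both, by limma).

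Second was Cs8g18470, on chromosome 8 from 21071907 to 21073405, plus strand, the top gene in the 2 libraries where Cs6g11770 was not. Its values were 2997, 3107 and 3636 FPKM in the control and 4244, 4999 and 4511 in the copper group, with no overlap, and 3304, 3579 and 3744 in the acid group and 4325, 5972 and 4498 in the combined group, again with none. Copper raised it at pH 4.8 by 0.50 (± 0.15 SE, adjusted p = 0.013 by limma) and at pH 3 by 0.46 (± 0.15 SE, adjusted p = 0.027 by limma). The latter call was lost when replicate 2 of the combined group was left out, at 0.32 (adjusted p = 0.07 by limma). The third gene, Cs7g30280 on chromosome 7 from 30360722 to 30361664, plus strand, was at 2557, 2769 and 2943 FPKM in the control and 3157, 3386 and 4068 in the copper group. It rose under copper at pH 4.8 by 0.35 (± 0.13 SE, adjusted p = 0.042 by limma), while its values in the acid group (3375 ± 100.1) and the combined group (3904 ± 468) overlapped. The fourth, Cs5g32800 on chromosome 5 from 34000073 to 34001476, plus strand, averaged 3659 ± 129.7 FPKM in the control, 3086 ± 172 in the acid group, 3256 ± 44.7 in the copper group and 2949 ± 530.3 in the combined group (SD, n = 3). It passed none of the tests, but was lower in the combined than in the copper group when replicate 2 was left out (-0.30, adjusted p = 0.036 by limma). The fifth, Cs4g10930 on chromosome 4 from 7521236 to 7521691, minus strand, was at 3022, 3780.1 and 2754 FPKM in the combined group and between 1949 and 2560 FPKM in the 9 other libraries. Its rise under copper at pH 3 was 0.47 (± 0.14 SE, adjusted p = 0.017 by limma), and 0.34 (adjusted p = 0.044 by limma) without replicate 2.

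**Figure D1:**
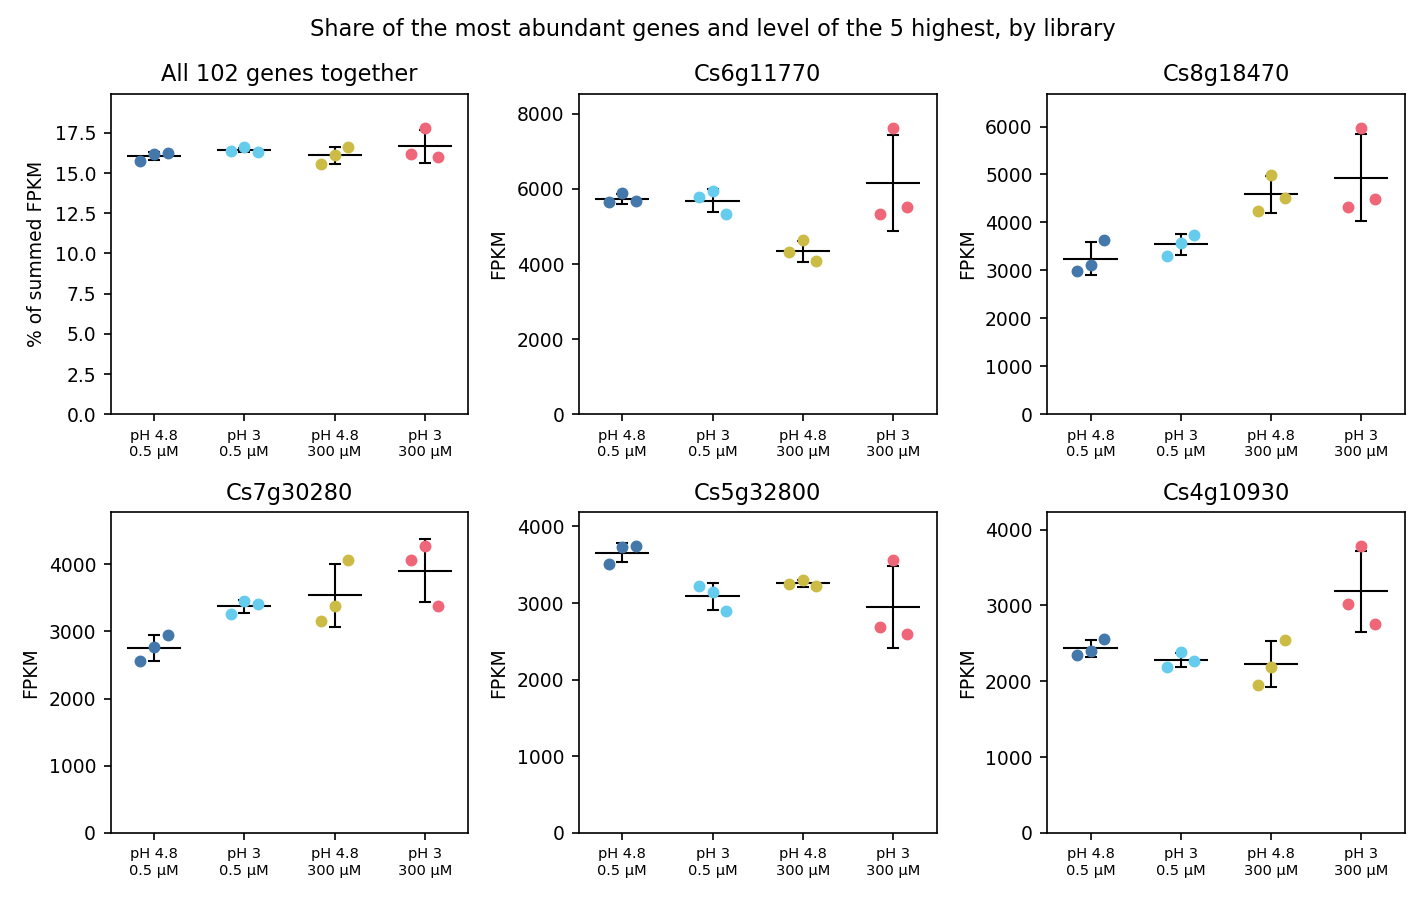
Share of the summed FPKM held by the 102 most abundant genes (first panel, percent) and FPKM of the 5 highest genes, by group. Points are libraries, lines the group means and bars 1 SD (n = 3). The share stays between 15.6% and 17.8%, while Cs6g11770 is lowest in the copper group and replicate 2 is the highest point of the combined group in each panel.

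The order of the highest genes was partly kept between groups. Of the 10 most abundant annotated genes of each group, 6 were shared by all 4 groups, and the 4 lists together held 15 genes, all among the 102. Fewer kept the level of the rule itself: 46 of the 102 averaged at least 500 FPKM in every group, 34 in 3 groups, 20 in 2 groups and 2 in a single group. In all 12 libraries 41 genes were at 500 FPKM or more, and the lowest value of any of the 102 in a library was 123 FPKM. In the other direction, 71 annotated genes reached 500 FPKM in at least 1 group without averaging it over all libraries. At the edge of the rule, Cs6g08600 (504 FPKM) and Cs2g13180 (503 FPKM) were just inside, and Cs3g21730 (497 FPKM) and Cs9g02810 (489 FPKM) just outside. A single assembled locus without an annotated identifier, on chromosome 5 from 6082217 to 6084387, also averaged over 500 FPKM (675 FPKM) and is not counted among the 102. As the rule uses the mean over all groups, a gene that is very high in 1 treatment can enter through that treatment. The numbers of differing genes below therefore describe the list and are set beside the same numbers over all 19204 tested genes.

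The abundant genes were compact in the genome. Their positions spanned a median of 1763 bp, against 2623 bp for the 1017 annotated genes that averaged from 100 up to 500 FPKM and 3225 bp for all annotated genes, introns included. Spans ran from 192 to 10357 bp. Only 2 genes spanned over 5000 bp (1.96%, against 23.7% of annotated genes), and 6 spanned under 300 bp (5.88%, against 0.315%). FPKM divides by length, so length is not independent of the rule, and the length that the authors divided by is not given in the sources used here. Cs6g11770 itself spans 237 bp, Cs4g03070 283 bp and orange1.1t02101 231 bp. By strand, 52 genes lay on plus and 50 on minus. Chromosome 4 carried 15 of them (1.08% of its annotated genes), chromosome 6 carried 14 (0.903%) and chromosome 2 carried 6 (0.285%), with 9 on unplaced sequence.

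Some of the abundant genes lay side by side. There were 6 pairs of direct neighbours among the listed genes, each on a single strand, with gaps of 296 to 31429 bp. The most abundant pair was Cs3g21160 and Cs3g21170 on chromosome 3 (24006211 to 24007688 and 24012713 to 24014105). Cs3g21160 averaged 2199 ± 64.7 FPKM in the control and 1472 ± 171 in the copper group, and Cs3g21170 1491 ± 92.1 and 929 ± 115 (SD, n = 3). Both fell under copper at pH 4.8, with differences of -0.58 (± 0.11 SE, adjusted p = 0.00073 by limma) and -0.69 (± 0.13 SE, adjusted p = 0.00078 by limma). In a pair chosen after its values were seen, Cs7g29010 and Cs7g29020 on chromosome 7, the former fell under copper at pH 4.8 (-0.56) and the latter rose (1.51). Levels of neighbours that are close copies would be uncertain, since the treatment of reads mapping to several places is not stated, and whether any are copies was not tested. Only Cs7g29010 overlaps another listed gene, which lies on the opposite strand at 0.178% of its level.

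Levels nonetheless moved between groups. On the log2(FPKM + 1) scale, on which all differences here are given, the range of the 4 group means had a median of 0.73 over the 102 genes. It was 0.78 for genes of 100 up to 500 FPKM and 0.64 for all tested genes. In 26 genes (25.5%) it reached at least 1, that is 2-fold, against 24.6% of all tested genes, and in 30 it stayed under 0.5. The highest mean was in the control for 27 genes, in the acid group for 28, in the copper group for 29 and in the combined group for 18. The largest ranges were in Cs1g19393 (3.12) and Cs1g16430 (2.32). The smallest were in Cs6g07420, at 974 ± 34.8 FPKM in the control, 1037 ± 65.5 in the acid group, 995 ± 179 in the copper group and 999 ± 136 in the combined group (SD, n = 3), and in Cs3g02980, whose group means lay between 519 and 582 FPKM.

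**Figure D2:**
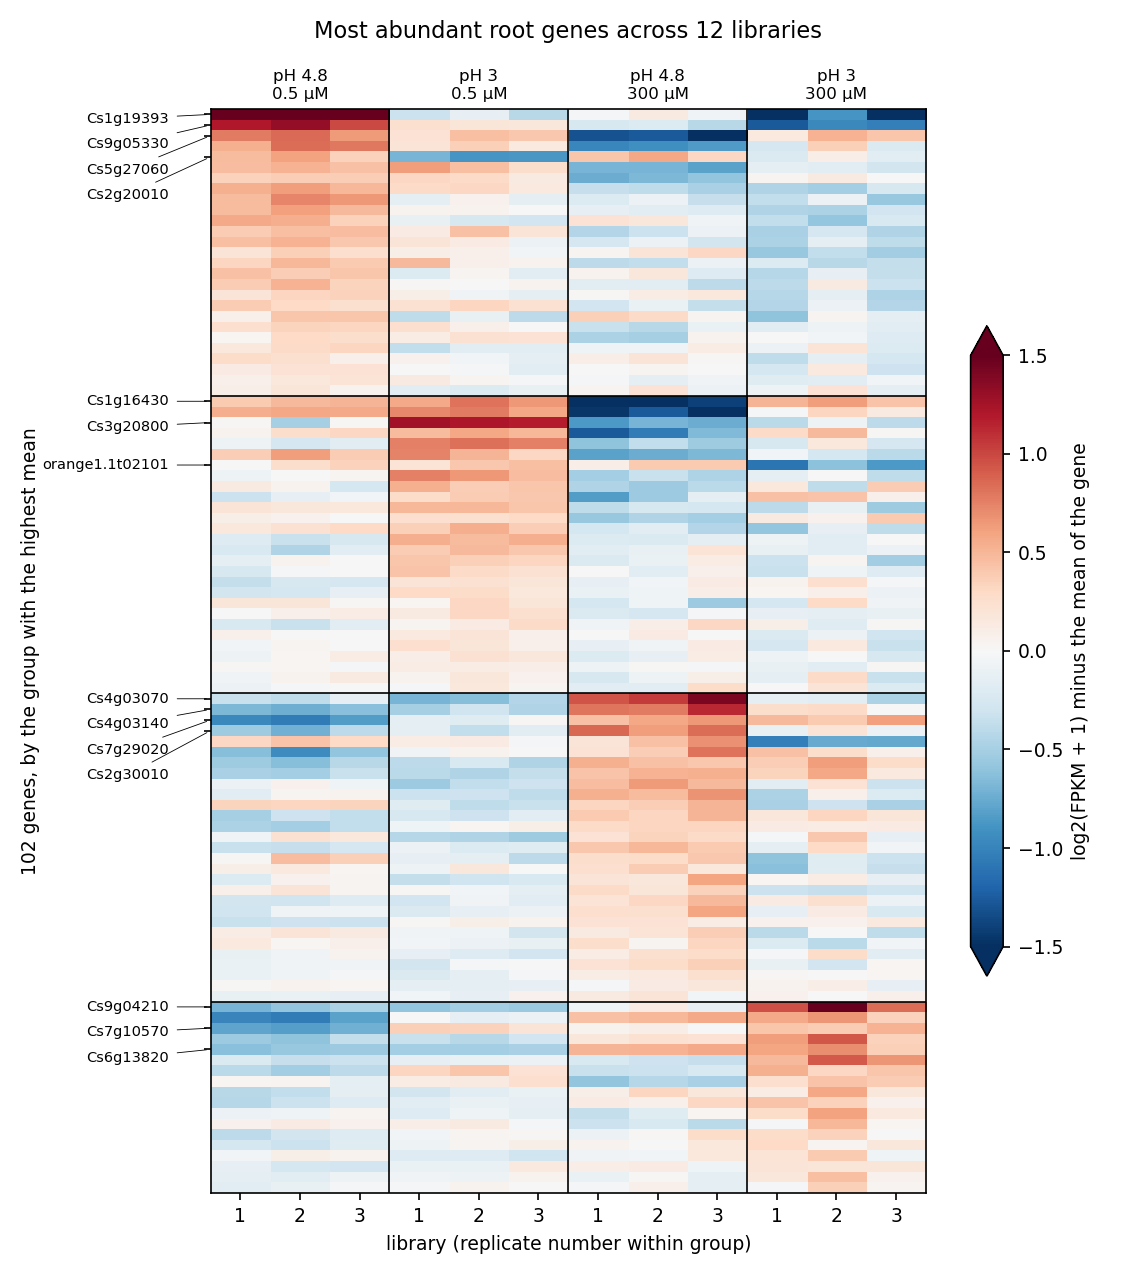
Level of the 102 genes (rows) in the 12 libraries (columns), as log2(FPKM + 1) minus the mean of the gene, with the colour scale ending at 1.5 on either side. Rows are ordered by the group with the highest mean (27 genes in the control, 28 in the acid, 29 in the copper and 18 in the combined group, top to bottom) and then by the range of the group means, and genes named for large differences are labelled.

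Copper at 300 µM was first set against 0.5 µM at pH 3. Of the 102 genes, 16 rose, 29 fell and 57 did not pass the test, so 44.1% were called against 36.3% of all tested genes (20.6% higher and 15.7% lower). Calls were made in limma over all 19204 tested genes, at a p under 0.05 after Benjamini-Hochberg adjustment, and p-values reflect how pools of seedlings varied. Of genes at 100 up to 500 FPKM, 59.5% were called (19.5% higher and 40.0% lower). The median difference was -0.13 over the 102 genes, -0.17 over genes of 100 up to 500 FPKM and 0.02 over all tested genes. At least 2-fold changes were 2 rises and 4 falls (against 4.68% and 1.74% of all tested genes).

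The largest rise was in Cs9g04210, on chromosome 9 from 2313276 to 2314373, minus strand. It was at 1107, 1167 and 1141 FPKM in the acid group and 3265, 5444 and 3000.0 in the combined group. All combined libraries were at least 2-fold above all acid libraries, and the gene went from rank 16 to rank 4 among annotated genes. The difference was 1.72 (± 0.18 SE, adjusted p = 1.2e-05 by limma), and 1.46 without replicate 2 of the combined group. Cs6g13820, on chromosome 6 from 15215443 to 15216901, plus strand, went from 359, 361 and 366 to 774, 834 and 657 FPKM, a difference of 1.05 (± 0.09 SE, adjusted p = 2.1e-06 by limma). Here too the groups did not overlap. Cs6g13820 was under 500 FPKM in every acid library and over it in every combined library. Its level under copper thus helped it meet the rule, and its test describes a gene chosen partly by that level.

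The largest fall under copper at pH 3 was in Cs3g20800, on chromosome 3 from 23776983 to 23779487, minus strand. FPKM was 1072, 1043 and 1012 in the acid group and 338, 427 and 342 in the combined group, with all acid libraries above 1000 and all combined libraries under 500. The difference was -1.50, given with no test since this gene met the rule through the acid group alone. Cs9g05330, on chromosome 9 from 3129179 to 3130180, plus strand, fell from 1683, 1626 and 1613 to 596, 731 and 699 FPKM, a difference of -1.28 (± 0.12 SE, adjusted p = 3.5e-06 by limma), again with no overlap. The split of calls depended on the scale: quantile normalization gave 30 rises and 25 falls (54.5% higher against 35.6%), so the larger side was not fixed. Without replicate 2 of the combined group 15 rose and 37 fell, and the differences were 0.98 in Cs6g13820, -1.61 in Cs3g20800 and -1.34 in Cs9g05330.

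At pH 4.8, the control pH, copper raised 30 of the 102 genes, lowered 34 and left 38 without a call. The share called was 62.7%, against 52.0% of all tested genes (25.5% higher, 26.5% lower) and 73.9% of those at 100 up to 500 FPKM. At least 2-fold changes were 7 rises and 10 falls (against 6.34% and 4.79% of all tested genes). The median difference was 0.01 over the 102 genes and -0.01 over all tested genes.

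Cs4g03140, on chromosome 4 from 1602272 to 1603662, minus strand, rose most. It was at 356, 340.2 and 368 FPKM in the control and 994, 973 and 1248 in the copper group. The lowest copper library was thus more than 2-fold above the highest control library, and the difference was 1.58 (± 0.11 SE, adjusted p = 1.7e-07 by limma). Cs7g29020, on chromosome 7 from 29391707 to 29394290, minus strand, rose from 265, 253 and 292 to 709, 783 and 820.4 FPKM, a difference of 1.51 (± 0.10 SE, adjusted p = 7.3e-08 by limma). Both genes were under 500 FPKM in every control library and over it in every copper library. Their level under copper thus helped them meet the rule, and both tests describe genes chosen partly by that level.

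The deepest fall was in Cs5g27060, on chromosome 5 from 29761632 to 29762039, minus strand. Its FPKM was 2462, 2588 and 2236 in the control and 578, 597 and 396 in the copper group, which took it from rank 7 to rank 92 among annotated genes. The difference was -2.23 (± 0.16 SE, adjusted p = 1.6e-07 by limma). Cs1g16430, on chromosome 1 from 19773130 to 19774584, minus strand, fell from 608, 651 and 662 to 123, 144 and 175 FPKM, a difference of -2.12 (± 0.12 SE, adjusted p = 2.3e-08 by limma), with the lowest values of any of the 102 genes. It was under 500 FPKM in every copper library and over it in every library of the other groups. Its test here, and those for low pH and the interaction below, thus describe a gene chosen partly by its level outside the copper group. The larger side of the calls turned with the scale: quantile normalization gave 37 rises and 28 falls (56.9% higher against 46.9%), and scaling by the genes outside the list 36 and 27 (57.1% higher).

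The copper responses at both pH values come from different libraries and could be set side by side. Copper raised 11 genes at both (10.8%, against 13.3% of all tested genes) and lowered 17 at both (16.7%, against 10.5%). Among genes of 100 up to 500 FPKM, 15.3% were raised at both and 31.2% lowered at both, so the share lowered was higher there than in the 102. None was called in opposite directions in limma, against 2.09% of all tested genes. At an unadjusted p under 0.05 there were 2, and quantile normalization and scaling by the genes outside the list gave 2 each. With replicate 2 of the combined group left out, 10 were raised and 20 lowered at both, with 0 in opposite directions. Over all alternatives the genes raised at both numbered 9 to 20 and those lowered at both 15 to 22. Cs6g13820 was among the former, with 1.05 at pH 3 and 1.11 at pH 4.8. Cs9g05330 and Cs1g19393 were among the latter, with -1.28 and -1.17 at pH 3 and -1.45 and -1.71 at pH 4.8. The pH 3 value of Cs1g19393 was -1.46 without replicate 2 of the combined group. A further 17 genes were called at pH 3 alone (5 higher, 12 lower, against 10.4% of all tested genes) and 36 at pH 4.8 alone (19 higher, 17 lower, against 26.1%).

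Whether the copper difference itself depended on pH was tested as an interaction, in which the difference at pH 4.8 is subtracted from the one at pH 3. It was called for 38 of the 102 genes (37.3%, against 20.8% of all tested genes and 30.6% of those at 100 up to 500 FPKM), with 14 values above 0 and 24 below (against 11.6% and 9.2%). Genes called at pH 3 alone that also had a called interaction numbered 14 (13.7% of the 102, against 4.29% of all tested genes), and such genes called at pH 4.8 alone 16 (15.7%, against 8.84%). In 21 of the 38 the response at pH 4.8 was the larger in size, and in 17 that at pH 3. Without replicate 2 of the combined group 12 values lay above 0 and 31 below.

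Both largest positive values belonged to genes whose 3 copper libraries lay below the 9 others. Cs5g27060 was at 1669, 1956 and 1903 FPKM in the acid group and 1592, 2052 and 1916 in the combined group, beside its fall at pH 4.8. Its interaction was 2.24 (± 0.22 SE, adjusted p = 1.9e-05 by limma). Cs1g16430 was at 689.7, 814 and 728 FPKM in the acid group and 663, 715 and 626 in the combined group, so that the 9 libraries outside the copper group stood at 608 to 814 FPKM and the copper group at 123 to 175. The interaction was 1.97 (± 0.17 SE, adjusted p = 5.6e-06 by limma).

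Negative values came in different forms. orange1.1t02101, on unplaced sequence from 32701382 to 32701612, plus strand, was at 280.0, 393 and 331 FPKM in the combined group and at 602 to 822 FPKM in the 9 other libraries. The copper difference was -1.21 (± 0.14 SE, adjusted p = 2.3e-05 by limma) at pH 3 and 0.09 (± 0.14 SE, adjusted p = 0.59 by limma) at pH 4.8, and the interaction -1.30 (± 0.19 SE, adjusted p = 0.00042 by limma). Being under 500 FPKM in the combined libraries alone, this gene was chosen partly by its level in the other groups, and its tests describe it as such. Cs2g30010, on chromosome 2 from 29445448 to 29446695, plus strand, was at 1229, 1041 and 1207 FPKM in the copper group, against 466, 410.1 and 512 in the control, 610.4, 522 and 601 in the acid group and 623, 776 and 632 in the combined group. All copper libraries lay above the 9 others, and the interaction was -1.10 (± 0.17 SE, adjusted p = 0.0005 by limma). Cs9g04210 also differed between pH values: it rose under copper by 1.72 at pH 3 and 0.57 at pH 4.8, an interaction of 1.16 (± 0.26 SE, adjusted p = 0.0059 by limma). Without replicate 2 of the combined group the interactions were 2.16 in Cs5g27060, 1.92 in Cs1g16430, -1.43 in orange1.1t02101, -1.20 in Cs2g30010 and 0.89 in Cs9g04210, and the copper difference of orange1.1t02101 at pH 3 was -1.33.

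**Figure D3:**
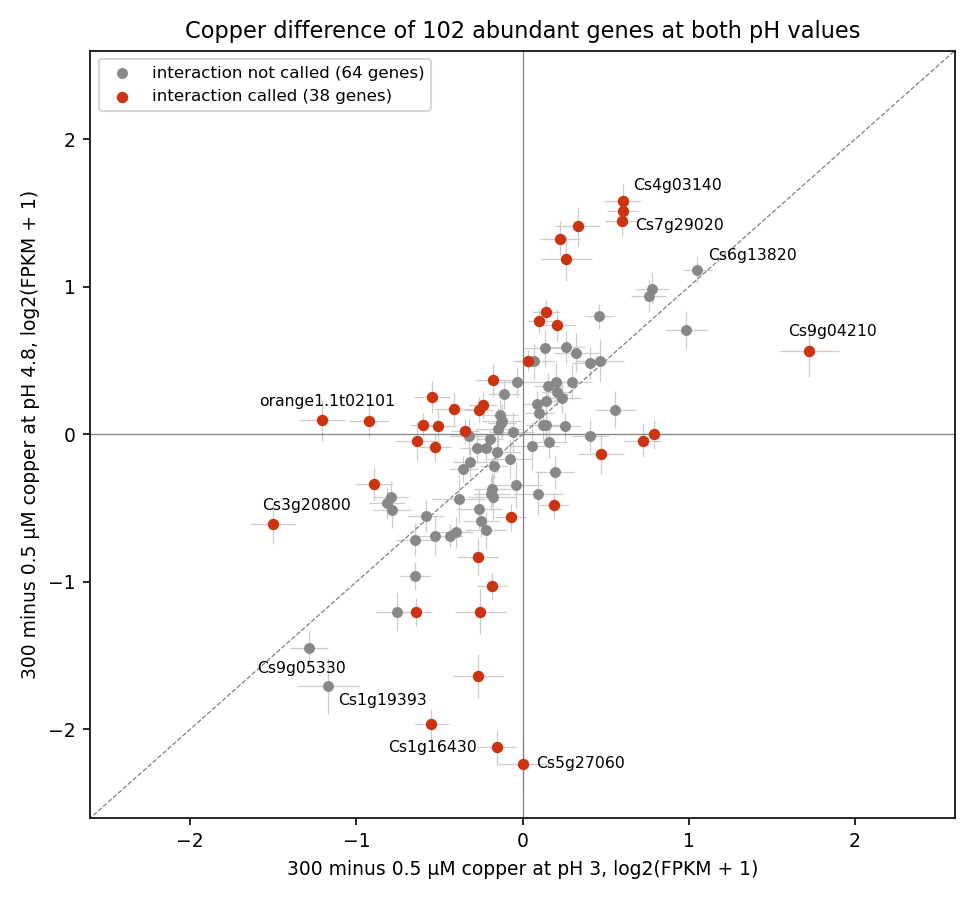
Copper difference of each of the 102 genes at pH 3 (x axis) and at pH 4.8 (y axis), in log2(FPKM + 1). Bars are 1 standard error from limma, the dashed line marks equal differences, and red points are the 38 genes with a called interaction. Cs5g27060 and Cs1g16430 lie near 0 on the x axis and below -2 on the y axis, and Cs9g04210 lies farthest right at 1.72.

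**Figure D4:**
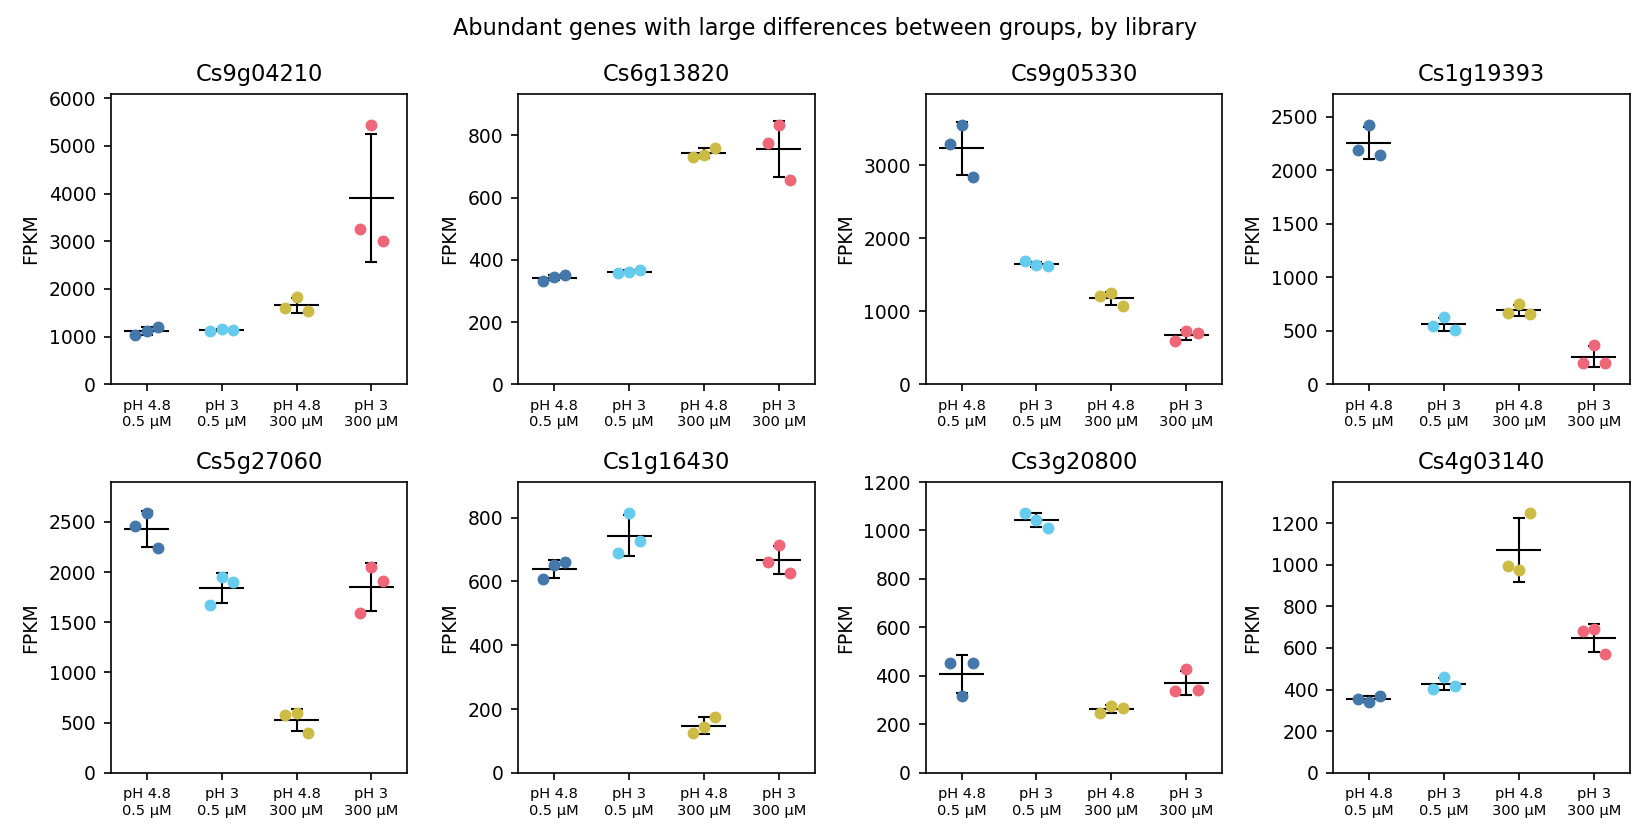
FPKM of 8 genes with large differences, by group. Points are libraries, lines the group means and bars 1 SD (n = 3). Cs9g05330 and Cs1g19393 are highest in the control and lowest in the combined group, Cs5g27060 and Cs1g16430 are low in the copper group, and Cs3g20800 is high in the acid group.

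The effect of acidity without excess copper was asked next, from the acid group and the control at 0.5 µM. At pH 3, 20 of the 102 genes were higher, 18 lower and 64 without a call, 37.3% called against 34.8% of all tested genes (13.3% higher, 21.4% lower). The share was 57.5% among genes of 100 up to 500 FPKM. Changes of at least 2-fold were 2 rises and 2 falls (against 1.72% and 1.6% of all tested genes). The median difference was 0.05 over the 102 genes and -0.06 over all tested genes.

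Cs3g20800 rose most, from 452, 316 and 453 FPKM in the control to 1072, 1043 and 1012 in the acid group. The acid group was the only one in which it averaged over 500 FPKM, and the difference of 1.37 is a description only. Cs7g10570, on chromosome 7 from 6836091 to 6838141, minus strand, rose from 298, 292 and 313 to 663, 658 and 592 FPKM, a difference of 1.08 (± 0.08 SE, adjusted p = 4.3e-06 by limma), with no overlap.

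Cs1g19393, on chromosome 1 from 22698330 to 22698996, plus strand, fell most. It was at 2190.2, 2425 and 2141 FPKM in the control and 543, 625 and 509 in the acid group, that is from rank 8 to rank 88 among annotated genes. The difference was -2.01 (± 0.19 SE, adjusted p = 1.7e-05 by limma). Cs2g20010, on chromosome 2 from 16733013 to 16734634, minus strand, fell from 876, 962 and 800.4 to 389.8, 342 and 343 FPKM, a difference of -1.29 (± 0.11 SE, adjusted p = 1.1e-05 by limma), and neither gene's groups overlapped. Cs2g20010 was over 500 FPKM in every control library and under it in every acid library. Its level in the control thus helped it meet the rule, and its test describes a gene chosen partly by that level. The number of falls was 11 without replicate 3 of the acid group and 11 without replicate 2 of the control, and rises against falls were 24 and 13 under median scaling (64.9% higher against 52.6%) and 30 and 15 when scaled by the genes outside the list (66.7%).

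The same pH comparison under 300 µM copper set the combined group against the copper group. At pH 3, 22 of the 102 genes were higher, 27 lower and 53 without a call, 48.0% called against 42.4% of all tested genes (19.5% higher, 22.9% lower) and 53.3% of those at 100 up to 500 FPKM. Changes of at least 2-fold were 5 rises and 4 falls (against 4.79% and 2.69% of all tested genes). The median difference was -0.06 over the 102 genes and -0.04 over all tested genes. Without replicate 2 of the combined group 21 genes were higher and 35 lower.

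The largest rises were those of the genes that were low in the copper group. Cs1g16430 was higher in the combined group by 2.18 (± 0.12 SE, adjusted p = 3.4e-08 by limma) and Cs5g27060 by 1.84 (± 0.16 SE, adjusted p = 1.5e-06 by limma), with the library values given above and no overlap in either. Cs4g03070, on chromosome 4 from 1570153 to 1570435, plus strand, was lower in the combined group. Its FPKM was 424, 416 and 338 there and 900.4, 974 and 1246 in the copper group, the only group in which it averaged over 500, so the difference of -1.40 is a description only. Cs1g19393 was at 201, 368 and 203 FPKM in the combined group and 669, 747 and 654 in the copper group, a difference of -1.48 (± 0.19 SE, adjusted p = 4.5e-05 by limma). Without replicate 2 of the combined group the differences were 2.13 in Cs1g16430, 1.76 in Cs5g27060, -1.44 in Cs4g03070 and -1.76 in Cs1g19393.

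Low pH moved some genes at both copper levels, which no shared library links. Higher at both were 6 genes (5.88%, against 5.42% of all tested genes) and lower at both 11 (10.8%, against 11.5%), numbers that ran from 4 to 10 and from 7 to 14 over the alternatives. Cs7g10570 was higher at both, by 1.08 at 0.5 µM and 0.39 at 300 µM, and Cs2g20010 lower at both, with differences of -1.29 and -0.53. As said above, both genes were chosen partly by their level in a group compared at 0.5 µM. At 300 µM the values without replicate 2 of the combined group were 0.42 and -0.62. The gene called in opposite directions was Cs4g18090 on chromosome 4 (17714620 to 17715719), chosen after its values were seen. It fell under low pH at 0.5 µM, from 1415 ± 159 to 1004 ± 79 FPKM, and rose at 300 µM, from 451 ± 19.7 to 848 ± 215 FPKM (SD, n = 3). Without replicate 2 of the combined group its difference at 300 µM was 0.68. Such genes were 2.83% of all tested genes, and 0 to 4 of the 102 over the alternatives. They numbered 4 without replicate 2 of the combined group, beside 7 genes higher and 14 lower at both.

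**Figure D5:**
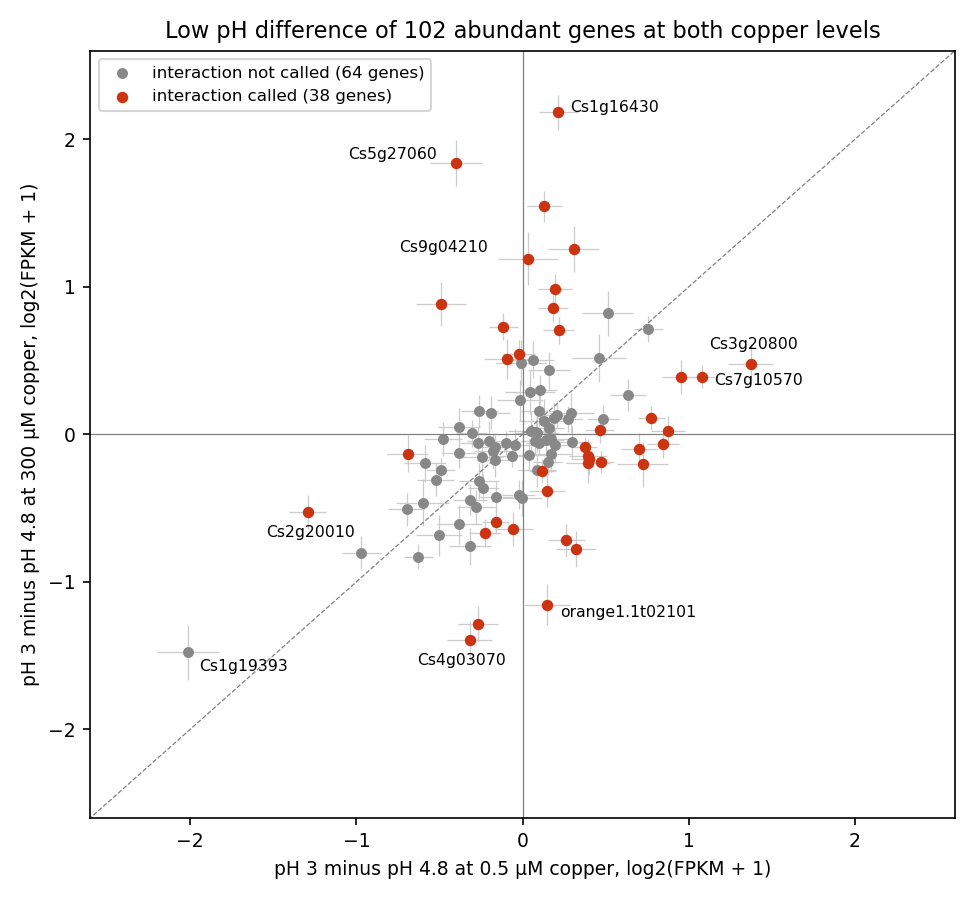
Difference between pH 3 and pH 4.8 of each of the 102 genes at 0.5 µM copper (x axis) and at 300 µM copper (y axis), in log2(FPKM + 1). Bars are 1 standard error from limma, the dashed line marks equal differences, and red points are the 38 genes with a called interaction. Cs1g19393 is lowest on both axes, while Cs1g16430 and Cs5g27060 are the highest at 300 µM.

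Gains and losses of FPKM over the 102 genes balanced in a single comparison, and there only with replicate 2 of the combined group included. From the acid to the combined group, 44 genes gained 12314 FPKM in all and 58 lost 12344, a net of -29.7 FPKM. When that replicate was left out, 42 gained 8648 FPKM and 60 lost 14395, a net of -5747 FPKM. Cs9g04210 alone accounted for 22.4% of the gain, and 23.1% without that replicate. From the copper to the combined group 43 genes gained 13943 FPKM and 59 lost 10924, a net of 3019 FPKM that turned to -2698 FPKM without the same replicate. The nets are not corrected for the scale of the libraries. Summed FPKM of all genes was 543998, 583918 and 536139 in the combined libraries and averaged 555966 in the copper group. The share of the 102 genes was 16.1% in the copper group and 16.1% in the combined group without replicate 2.

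From the control to the copper group, 52 genes gained 14094 FPKM and 50 lost 19347, a net of -5254 FPKM. The largest loss there was 2049.6 FPKM in Cs9g05330, which was at 3294, 3553 and 2834 FPKM in the control and 1214, 1244 and 1074 in the copper group. From the control to the acid group 55 genes gained 9113 FPKM and 47 lost 11317, with Cs1g19393 (1693 FPKM) and Cs9g05330 (1586 FPKM) giving the largest losses. The summed FPKM of all genes also differed between these groups, at 590046 in the control, 563401 in the acid group and 555966 in the copper group. Both comparisons share the control libraries, and the sums include genes that passed no test.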

How the data were processed

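RNA sequencing of pooled Citrus sinensis roots gave 12 libraries in 4 groups of 3. Each deposited table holds FPKM values computed by the authors, with gene positions. The submitters' processing notes list DESeq2 1.22.1, StringTie 1.3.4d, featureCounts 1.6.2, HISAT2 2.1.0 and fastp 0.19.3, without saying what each did. Genome build, annotation and strand setting were not given in the sources used here.

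Values were transformed as log2(FPKM + 1). Genes whose mean reached 1 FPKM in any group (19204) were fitted in limma 3.58.1 (R 4.3.3) with a variance trend and a mean per group, over all 12 libraries. The tests were two-sided with Benjamini-Hochberg adjustment at 0.05. The fit was tested on simulated data. All 102 genes passed the filter. Depth came from the steps of low FPKM values, with 75.7% to 78.8% of values within 0.15 of a whole fragment, too few to rebuild counts.

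Named genes are the 5 highest, the 2 largest called rises and falls per test with no overlap between groups (a condition not applied to the interaction), the genes nearest the threshold, the smallest and largest ranges, the highest pair of neighbours, and the genes over 500 FPKM in 1 group. The members and lists were chosen with earlier results of these data known. Each value without replicate 2 of the combined group was looked at after that library was seen to stand apart. Alternatives were another pseudocount, no filter, 3 other scalings, no trend, a replicate block and leaving out each library.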

Additional observations from a re-analysis of the deposited data

Results flagged for a closer look

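Copper differences that were not alike at pH 3 and pH 4.8 were flagged. The interaction was called in limma for 38 of the 102 genes (37.3%). This compares with 20.8% of all tested genes and 30.6% of those at 100 up to 500 FPKM. Among the named genes, the pH 3 difference less the pH 4.8 difference was 2.24 in Cs5g27060 and 1.97 in Cs1g16430, both low in the copper group. It was 1.16 in Cs9g04210, 0.77 in Cs2g20010 and 0.61 in Cs4g10930. Cs4g10930 passed at an adjusted p of 0.043 and not without replicate 2 of the combined group (0.48, adjusted p = 0.062 by limma). Values below 0 were -1.30 in orange1.1t02101, -1.10 in Cs2g30010, -1.08 in Cs4g03070 and -0.98 in Cs4g03140. The remaining ones were -0.91 in Cs7g29020, -0.89 in Cs3g20800 and -0.69 in Cs7g10570. Cs4g03070 and Cs3g20800 each averaged over 500 FPKM in 1 group alone, so their values here are a description only. Without replicate 2 of the combined group the values were 0.67 in Cs2g20010, -1.12 in Cs4g03070, -1.03 in Cs4g03140, -0.86 in Cs7g29020, -1.001 in Cs3g20800 and -0.66 in Cs7g10570.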

How the results depend on the processing

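The differences of genes named for a large rise or fall kept their direction under each alternative run. Their calls were kept as well, leaving aside Cs3g20800 and Cs4g03070, whose differences are a description only. A pseudocount of 0.1 left the number of calls in each test as it was. Quantile normalization raised the number of rises under copper at pH 3 from 16 to 30 and under low pH at 0.5 µM from 20 to 31, and 2 genes called under copper at pH 3 and 1 called in the interaction changed sign. The cause was not tested. The largest shift of the median of all tested genes by a scaling was -0.09 log2 units. Leaving out single libraries gave 14 to 21 rises and 25 to 37 falls for copper at pH 3, 24 to 32 and 28 to 35 for copper at pH 4.8, 15 to 23 and 11 to 24 for low pH at 0.5 µM, 19 to 23 and 22 to 35 for low pH at 300 µM, and 12 to 16 and 17 to 31 for the interaction, with no called gene changing sign. With annotated identifiers alone as the whole, the share was 16.4% in the control and 16.7% in the acid group, moves of more than 1 SD. A fit with the replicate number as a block gave 17 rises and 29 falls, 30 and 33, 21 and 19, 22 and 28, and 14 and 24 in the same order. The numbers are not stated to pair the pools. Deviations of same-numbered libraries correlated at -0.22 to 0.24 (median 0.059), over 0.1 in 7 of 18 pairs. Those of other-numbered libraries correlated at -0.32 to 0.32 (median -0.063), over 0.1 in 5 of 36 pairs. Whether same-numbered pools share a factor was not tested. Counting error is small at these levels, so the spread between 3 pools sets what can be seen.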

Other observations

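Abundant genes that lie close together were looked at after their values were seen, with no test. Within 50 kb of each other lay 20 of the 102 genes, in 9 windows. In 5 windows all of them had their highest mean in the same group, whether or not a difference was called. Over all pairs of the 102 genes, near or far, 25.0% shared the group of their highest mean. That is a share of pairs and not of windows, so the window count cannot be measured directly against it. How often other annotated genes lie as close or agree was not tested. In a window of 57411 bp on chromosome 4 (1570153 to 1627563), which holds 8 listed genes, Cs4g03070, Cs4g03140 and Cs4g03200 were all highest in the copper group. Their means there were 1040.1 ± 182, 1072 ± 153 and 1339 ± 304 FPKM, against 388 ± 38, 355 ± 14.1 and 580.3 ± 74.2 in the control (SD, n = 3). Each rose under copper at pH 4.8, Cs4g03200 by 1.19 (± 0.15 SE, adjusted p = 3.4e-05 by limma). The rise of Cs4g03070 is a description only, as that gene averaged over 500 FPKM in the copper group alone.

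On chromosome 3, Cs3g20800 and Cs3g20830 (23801663 to 23805328) were both highest in the acid group. Cs3g20830 averaged 562 ± 35.3 FPKM in the control, 1086 ± 31.5 in the acid group, 446 ± 39.3 in the copper group and 589 ± 101 in the combined group. Under copper at pH 3 it fell, with a difference of -0.90 (± 0.12 SE, adjusted p = 6.2e-05 by limma), beside -1.50 for Cs3g20800. Leaving out replicate 2 of the combined group gave -1.03 and -1.61. Closeness did not always go with a like pattern: of Cs4g11190 and Cs4g11200 on chromosome 4, the former was called under copper at pH 4.8 (1.45) and the latter was not (-0.34). Shared reads between close copies were not tested.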
